A study of Mus musculus with 6 samples.

Results

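The genes of the ephrin, Slit-Robo and netrin guidance systems were examined in the olfactory bulb (OB) of aged Tg2576 mice. Members were the probe sets whose annotated gene symbol names an Eph receptor, an ephrin, a Slit, a Robo, a netrin, an Unc5 receptor, Dcc or Neo1. This gave 38 genes, each with 1 probe set, among 22206 probe sets tested and 19505 genes named. RefSeq lists 41 symbols of these kinds, and Ephb2, Ntn3 and Ntng2 were not analysed here. RNA was taken from the OB of 3 Tg2576 mice and 3 wild-type (WT) littermates, all female and 18 months old, and was hybridised to 1 Affymetrix mouse Clarion S array per mouse. Tg2576 mice carry the human amyloid precursor protein gene with the Swedish double mutation, driven by the hamster prion promoter, and the WT littermates lack it. The comparison asks how this transgene relates to the RNA content of the OB at an age when amyloid deposits are present.

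Guidance proteins steer growing axons and migrating cells and act later at synapses and blood vessels. Eph receptors are tyrosine kinases that bind ephrins on the neighbouring cell, EphA receptors mainly ephrin-A ligands, which are anchored to the membrane by a lipid, and EphB receptors mainly ephrin-B ligands, which span it and signal in turn. Slits are secreted and repel cells through Robo receptors, and netrins attract through Dcc and repel through Unc5 receptors. In the olfactory system, ephrin-A ligands and Slit-Robo signals sort the axons of sensory neurons in the OB, and Slits direct the neuroblasts that migrate towards it.

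Values are log2 expression levels, as deposited, from robust multi-array average (RMA) normalization. The genotypes were set against each other in limma, which fits a linear model per gene and borrows the variance from all genes, and every difference is the log2 value in Tg2576 minus that in WT, with its standard error (SE). A gene was called where the unadjusted p lay under 0.01 and the fold was over 1.3 or under 0.7, which are the thresholds used in the study. With 3 mice per genotype an exact 2-sided p cannot go below 0.1, so no exact test of single genes was made, and the small number of arrays sets the precision. The array medians lay between 8.18 and 8.22, Pearson's r between arrays was between 0.992 and 0.995, and the medians of 5222 negative control probe sets lay between 6.78 and 6.91. The mouse App gene averaged 12.34 ± 0.026 in the Tg2576 arrays, against 12.36 ± 0.073 in the WT arrays (SD, n = 3 each), and the sources used here do not say whether its probes also detect the human sequence.

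No guidance gene passed both thresholds in limma, where 0.797% of all probe sets did, and limma-trend with robust moderation also called 0. The smallest Benjamini-Hochberg adjusted p among the guidance genes was 0.370. At an unadjusted p under 0.01, limma gave 2 guidance genes (5.26%), Ephb3 and Ephb4, beside 2.11% of all probe sets. At an unadjusted p under 0.05 it gave 9 (23.7%), beside 8.54% of all probe sets. Of these 9 genes, 7 were higher in Tg2576 OBs (18.4% of the guidance genes, beside 4.57% of all probe sets), namely Ephb3, Ephb4, Efnb2, Robo2, Slit2, Ntn1 and Efna5. The other 2, Epha10 and Robo3, were lower (5.26%, beside 3.97%). The count of 9 was 2 without Tg2576 replicate 2 and 4 without Tg2576 replicate 3, and between 6 and 9 without any other array. The genes counted were not always the same, and only Ephb3 and Ephb4 stayed under this p whichever array was left out. Without WT replicate 1, for example, Efna1, Epha6, Ntng1 and Unc5b were under it, and Efnb2, Slit2, Ntn1 and Efna5 were not. The groups did not overlap in 12 guidance genes (31.6%, beside 14.1% of all probe sets), with all Tg2576 arrays above all WT arrays in 8 of them and below in 4. The guidance genes did not move one way as a whole. Their median difference was -0.019 (quartiles -0.076 and 0.14), with -0.0049 for all probe sets (quartiles -0.085 and 0.077), and 17 differences were positive and 21 negative.

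**Figure D1:**
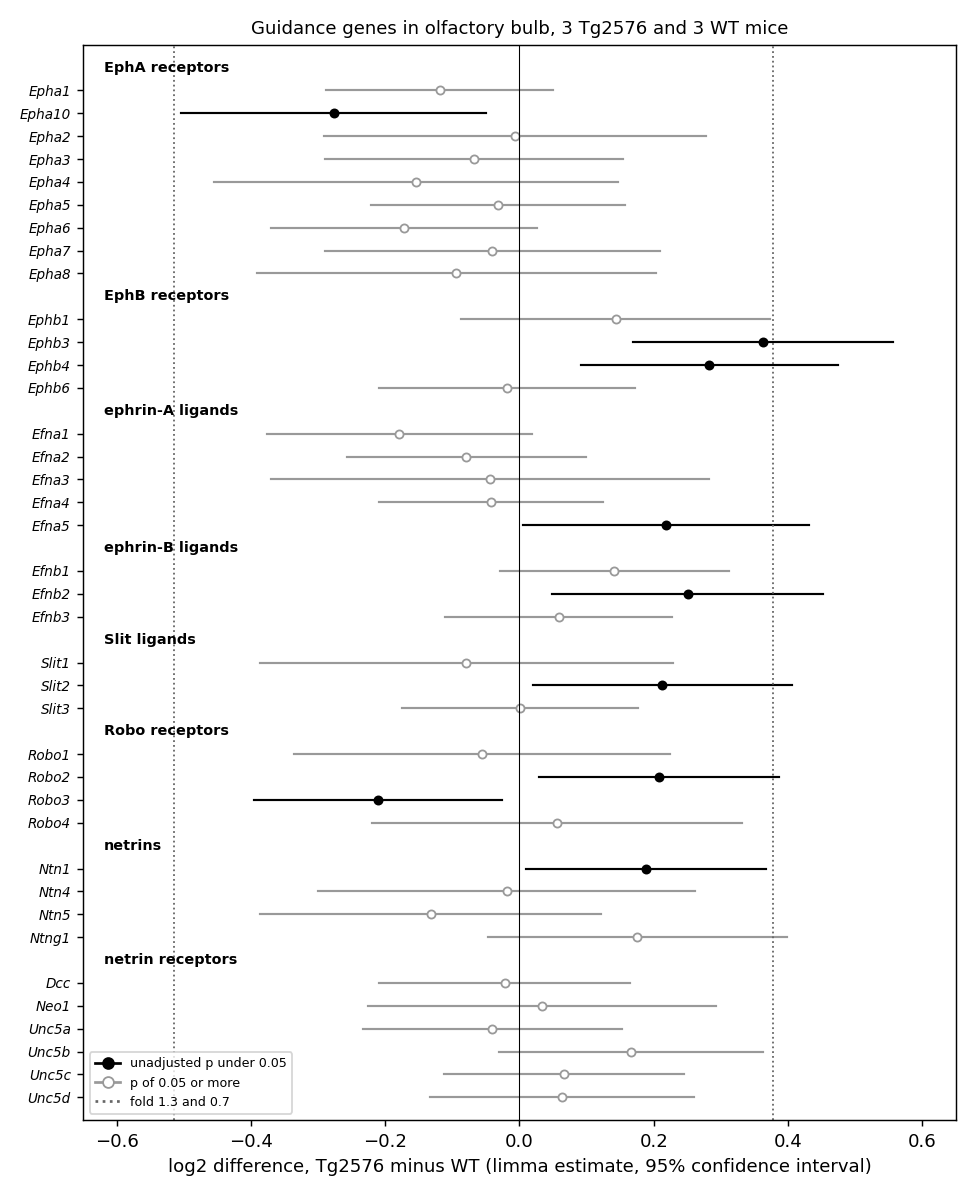
Log2 difference, Tg2576 minus WT, of the 38 guidance genes by family, with 95% confidence intervals from limma (x axis, log2 units; filled points, unadjusted p under 0.05; dotted lines, the fold thresholds of 1.3 and 0.7). Every EphA receptor lies to the left of 0, and Ephb3, at 0.36, lies closest to the upper fold threshold.

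Among the EphB receptors, Ephb3 and Ephb4 were higher in every Tg2576 array than in any WT array. Ephb3, a receptor that guides forebrain commissural axons together with other EphB members, was at 8.35, 8.51 and 8.30 in Tg2576 OBs, against 8.02, 8.09 and 7.97 in WT OBs. The lowest Tg2576 array lay 0.21 above the highest WT array. The difference was 0.36 (SE 0.085, unadjusted p = 0.0024, limma adjusted p = 0.370), a fold of 1.29 that lay just under the threshold of 1.3. It passed both thresholds without Tg2576 replicate 1 (0.38), without Tg2576 replicate 3 (0.41) and without WT replicate 2 (0.40), and with array weights (0.38), and the lowest value with an array left out was 0.30. Ephb4, the ephrin-B2 receptor that marks veins, was at 7.48, 7.37 and 7.42 in Tg2576 OBs, against 7.04, 7.25 and 7.14 in WT OBs. Its groups were also apart, and the difference was 0.28 (SE 0.084, unadjusted p = 0.0090, limma adjusted p = 0.457), between 0.23 and 0.34 with an array left out. Its level was low, above that of 59.0% of the negative control probe sets. Ephb1, a receptor that steers axons at the optic chiasm, was at 9.57, 9.84 and 9.92 in Tg2576 OBs, against 9.64, 9.64 and 9.63 in WT OBs. Tg2576 replicate 1 lay below all WT arrays while the other Tg2576 arrays lay above them, so the difference of 0.14 (SE 0.10) did not exceed the spread. Ephb6, which lacks kinase activity, differed by -0.019, with a 95% confidence interval from -0.21 to 0.17.

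The 3 ephrin-B ligands, the partners of these receptors, all had positive differences. Efnb2, the ligand that marks arteries and binds EphB4, was at 9.76, 9.98 and 9.91 in Tg2576 OBs, against 9.54, 9.67 and 9.69 in WT OBs. All Tg2576 arrays were above all WT arrays, with a difference of 0.25 (SE 0.088, unadjusted p = 0.021, limma adjusted p = 0.518), between 0.20 and 0.31 with an array left out. Efnb1, a ligand of the EphB receptors in neural progenitors and skull sutures, was at 9.31, 9.28 and 9.18 in Tg2576 OBs, against 9.13, 9.08 and 9.13 in WT OBs. Its groups did not overlap, by a gap of 0.050, and the difference of 0.14 (SE 0.075) had an unadjusted p of 0.092 in limma. Efnb3, which stops axons at the spinal midline, differed by 0.058 (SE 0.074), with overlapping arrays.

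As a class, the 4 EphB receptors and 3 ephrin-B ligands gave 6 positive differences and 1 negative one. Their mean distance from the WT mean, which like every family mean given here was chosen after seeing the data and has no test, was 0.13, 0.22 and 0.17 in Tg2576 replicates 1 to 3, against -0.034, 0.022 and 0.013 in WT replicates 1 to 3. The arrays of the genotypes did not overlap in this mean. The mean difference was 0.17 over the 7 genes, and between 0.15 and 0.20 with any array left out.

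**Figure D2:**
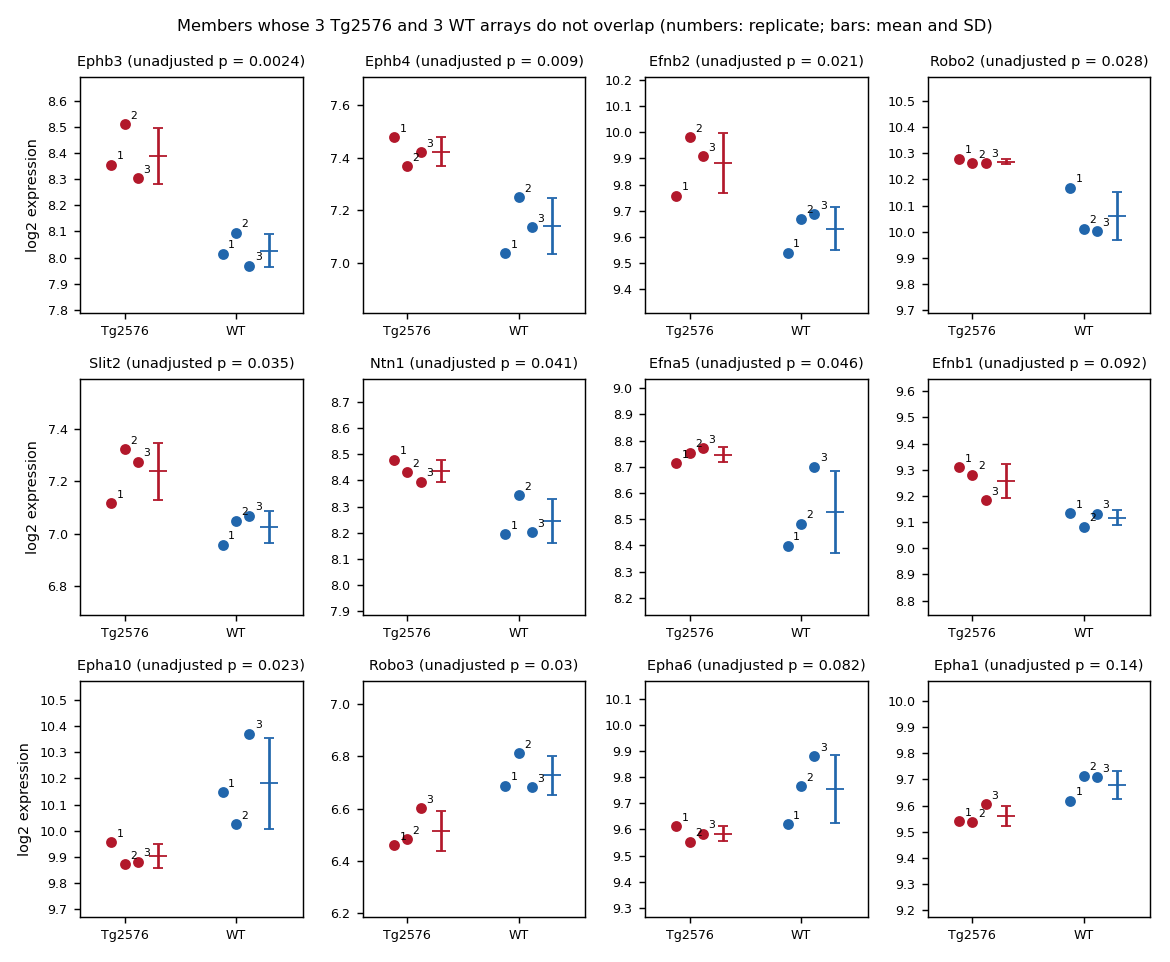
Log2 expression (y axis) of the 12 guidance genes whose Tg2576 arrays (red, left) and WT arrays (blue, right) do not overlap, with replicate numbers beside the points and bars for the mean and SD of 3 arrays. The gap between the groups is widest for Ephb3, at 0.21, and is 0.013 for Efna5 and -0.0076 for Epha6. A minus sign means that the Tg2576 arrays lie below the WT arrays, and not that they overlap.

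The 250 bases before the start of transcription are shown for the 3 class B genes at an unadjusted p under 0.05 and for Epha10, the EphA receptor that differed in the opposite direction at that p, so that the regulatory sequences of genes with differences of both signs can be read side by side. The sequences are from RefSeq, mouse build GRCm38.p6, and run 5′ to 3′ on the strand of the gene. They lie at chr16:21204545-21204794 for Ephb3, chr5:137349859-137350108 for Ephb4 and chr4:124881535-124881784 for Epha10, all on the plus strand, and at chr8:8661243-8661492 on the minus strand for Efnb2. Capitals mark GC boxes, the letters GGGCGG on either strand, which factors of the Sp family bind.
Ephb3: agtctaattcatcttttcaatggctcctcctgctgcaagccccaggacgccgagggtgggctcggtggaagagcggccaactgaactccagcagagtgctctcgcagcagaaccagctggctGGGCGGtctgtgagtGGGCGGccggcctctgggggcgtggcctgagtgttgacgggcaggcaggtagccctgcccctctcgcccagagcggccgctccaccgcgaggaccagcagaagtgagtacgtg
Ephb4: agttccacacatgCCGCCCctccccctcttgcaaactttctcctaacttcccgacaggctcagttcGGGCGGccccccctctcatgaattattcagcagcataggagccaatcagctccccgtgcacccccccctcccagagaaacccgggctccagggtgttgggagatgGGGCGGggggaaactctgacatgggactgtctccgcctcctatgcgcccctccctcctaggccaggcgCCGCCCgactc
Efnb2: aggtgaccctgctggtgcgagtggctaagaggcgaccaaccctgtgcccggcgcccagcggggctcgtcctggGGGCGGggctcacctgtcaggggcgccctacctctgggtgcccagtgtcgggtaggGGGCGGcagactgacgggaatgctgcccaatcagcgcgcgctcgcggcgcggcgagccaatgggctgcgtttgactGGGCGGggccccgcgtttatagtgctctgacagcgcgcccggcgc
Epha10: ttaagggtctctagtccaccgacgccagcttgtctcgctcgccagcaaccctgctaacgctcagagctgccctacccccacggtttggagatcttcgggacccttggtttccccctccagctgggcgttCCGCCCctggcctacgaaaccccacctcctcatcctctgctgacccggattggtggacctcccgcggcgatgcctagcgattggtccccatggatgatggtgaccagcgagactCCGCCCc
The GC box was found 2 times before Ephb3, 4 times before Ephb4, 3 times before Efnb2 and 2 times before Epha10. RefSeq windows of this length were matched for 33 of the 38 guidance genes, with 38 windows, since 4 of these genes have more than 1. The GC box was in 27 of these windows (71.1%) and in 32.7% of all 32851 windows, and the median GC content was 64.6% in the windows of guidance genes and 52.4% in all windows. The short form of the cAMP response element (TGACG on either strand) was before Ephb3 and Efnb2 and in 15.8% of the windows of guidance genes, beside 17.8% of all windows. The core letters of RBPJ, the Notch effector (TGGGAA on either strand), were in 18.4%, beside 21.6%, and the E-box CACGTG, which reads alike on both strands, in 5.26%, beside 6.02%. Overlapping matches, of 1 motif or of several, were all counted. A match describes the letters in the window and not a bound site.

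Markers of several cell types also differed between the genotypes, and in whole bulbs a change in the number of cells of a type and a change of RNA per cell cannot be told apart. Ephb4 and Efnb2 are both expressed by blood vessels. Of 8 endothelial markers, all 8 had positive differences, 3 were higher at an unadjusted p under 0.05 and 1, Cldn5, passed both thresholds. In limma, 4.57% of all probe sets were higher at that p, and 0.797% passed both thresholds in either direction. The marker lists, like the other lists here, were chosen with earlier results of these data known. The shares of all probe sets beside them are therefore a description and not a test. Their mean level was between 9.01 and 9.24 in Tg2576 OBs and between 8.86 and 8.93 in WT OBs. Their mean distance from the WT mean was 0.33, 0.12 and 0.35 in Tg2576 replicates 1 to 3. Of 6 markers of pericytes and smooth muscle, 3 were higher at that p, with mean levels from 8.36 to 8.49 in Tg2576 OBs and from 8.17 to 8.30 in WT OBs and mean distances of 0.14, 0.10 and 0.23 in Tg2576 replicates 1 to 3. Of 6 astrocyte markers, 5 were higher at that p and 1, Gfap, passed both thresholds, with mean levels from 9.89 to 9.95 in Tg2576 OBs and from 9.67 to 9.72 in WT OBs and mean distances of 0.19, 0.25 and 0.20 in Tg2576 replicates 1 to 3. Of the 6 markers of mitral and tufted cells, the output neurons of the OB, 3 were higher and 1, Tbx21, passed both thresholds, with mean levels from 10.39 to 10.49 in Tg2576 OBs and from 10.13 to 10.26 in WT OBs and mean distances of 0.18, 0.28 and 0.24 in Tg2576 replicates 1 to 3. The part of these cell types in the differences of the guidance genes was not tested.

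Markers of cells that surround or reach the OB were also higher in Tg2576 OBs when averaged over each list. The mean of the sensory neuron markers was higher in all 3 Tg2576 arrays, and that of the mucosa markers in 2 of them. Single markers did not all follow, and Ano2 in Tg2576 replicate 2 (7.93) lay below the WT arrays (7.95, 8.09 and 8.02). Olfactory sensory neuron markers, whose axons enter the OB, were higher at an unadjusted p under 0.05 in 7 of 10 (beside 4.57% of all probe sets). Of these, 5 passed both thresholds (beside 0.797% of all probe sets). Among them are Adcy3 and Gnal, which the study had already reported as higher in Tg2576 from these arrays. This list is therefore not independent of the data. The mean distances of the 10 from the WT mean were 0.61, 0.28 and 0.67 in Tg2576 replicates 1 to 3, against -0.097, 0.18 and -0.087 in WT replicates 1 to 3. Their mean level was between 8.76 and 9.15 in Tg2576 OBs and between 8.38 and 8.66 in WT OBs. The means of Cnga2 and Rtp1 lay under the median of the negative controls. Of 10 olfactory mucosa markers, 5 were higher at that p and 1, Trp63, passed both thresholds. Their mean distances were 1.495, -0.108 and 1.475 in Tg2576 replicates 1 to 3, against -0.18, -0.14 and 0.33 in WT replicates 1 to 3. Trp63 did not follow this mean, at 7.53, 8.09 and 7.65 in Tg2576 OBs, against 7.31, 6.98 and 7.18 in WT OBs. The means of Obp2a, Reg3g and Krt5 lay under the median of the negative controls. The mean level of the mucosa markers was between 7.08 and 8.69 in Tg2576 OBs and between 7.01 and 7.52 in WT OBs. Of 6 meningeal fibroblast markers 2, Dcn and Lum, were higher at that p, and Dcn passed both thresholds. The mean of Lum lay under the median of the negative controls. Also higher at that p were 3 of 5 oligodendrocyte markers and 1 of 6 microglia markers, none past both thresholds. Of 3 markers of oligodendrocyte precursors 1, Sox10, passed both thresholds, and of 4 olfactory ensheathing cell markers 1, Frzb, did. None of 8 interneuron markers had an unadjusted p under 0.05, and 1 of 6 neuroblast markers was lower. Interneurons are the most numerous neurons of the OB, and their markers had mean levels between 11.38 and 11.43 in Tg2576 OBs and between 11.38 and 11.46 in WT OBs, far above the negative controls. The part of the sensory neurons, the mucosa and these other cells in the differences of the guidance genes was not tested.

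All 9 EphA receptors had negative differences, with a mean of -0.11 over the family. Epha10, a receptor without kinase activity, was at 9.96, 9.87 and 9.88 in Tg2576 OBs, against 10.15, 10.02 and 10.37 in WT OBs. All Tg2576 arrays were below all WT arrays, and the difference was -0.28 (SE 0.0995, unadjusted p = 0.023, limma adjusted p = 0.529), the lowest among the 38 genes. It was -0.18 without WT replicate 3, the highest array, and -0.35 without WT replicate 2. Epha6 was at 9.61, 9.55 and 9.58 in Tg2576 OBs, against 9.62, 9.77 and 9.88 in WT OBs, a difference of -0.17 (SE 0.087). Epha1, the founding member of the receptor family, was at 9.54, 9.54 and 9.61 in Tg2576 OBs, against 9.62, 9.71 and 9.71 in WT OBs, a difference of -0.12 (SE 0.074). Neither gene overlapped between groups, and neither had an unadjusted p under 0.05. The other 6 receptors overlapped. Epha4, which binds ligands of both classes, differed by -0.15 (SE 0.13), and Epha8, Epha3, Epha7, Epha5 and Epha2 by values from -0.094 to -0.0069. All arrays of Epha8 lay under the median of the negative controls.

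The size of the mean difference of the EphA receptors rested largely on 1 WT array. Their shared sign also rested most on that array, and less on others. Their mean distance from the WT mean was -0.058, -0.15 and -0.11 in Tg2576 replicates 1 to 3, against -0.072, -0.045 and 0.12 in WT replicates 1 to 3, so that WT replicate 3 stood above all others and WT replicates 1 and 2 lay within or near the Tg2576 range. Without WT replicate 3 the mean difference was still negative, at -0.049, with 5 negative and 4 positive differences. With each other array left out it lay between -0.14 and -0.086. All 9 differences stayed negative without Tg2576 replicate 1 or WT replicate 1. There were 8 negative and 1 positive without Tg2576 replicate 2 or WT replicate 2, and 7 and 2 without Tg2576 replicate 3.

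The ephrin-A ligands split. Efna5, a repellent cue that orders retinal and olfactory axons, was at 8.71, 8.75 and 8.77 in Tg2576 OBs, against 8.40, 8.48 and 8.70 in WT OBs. The groups were apart by 0.013, with WT replicate 3 close to the Tg2576 arrays, and the difference was 0.22 (SE 0.093, unadjusted p = 0.046, limma adjusted p = 0.577). It was 0.31 without WT replicate 3, at an unadjusted p of 0.0078, and 0.15 without WT replicate 1. Efna1, a ligand first found in endothelial cells, differed by -0.18 (SE 0.086), with an unadjusted p of 0.070 in limma and overlapping arrays. Efna2, Efna4 and Efna3 differed by -0.079, -0.043 and -0.044. Efna3, a ligand found on glia and sensory axons, had the widest interval of all 38 genes, from -0.37 to 0.28, since its values were 10.21, 10.20 and 10.02 in Tg2576 OBs, against 10.10, 9.94 and 10.52 in WT OBs. Efna1, Efna3 and Efna4 lie next to each other on the chromosome with no other protein-coding gene between neighbours. Without WT replicate 3 the mean difference of the 5 ligands turned to 0.038, against -0.025 with all arrays, and that of the 14 EphA receptors and ephrin-A ligands together was -0.018, against -0.078 with all arrays.

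**Figure D3:**
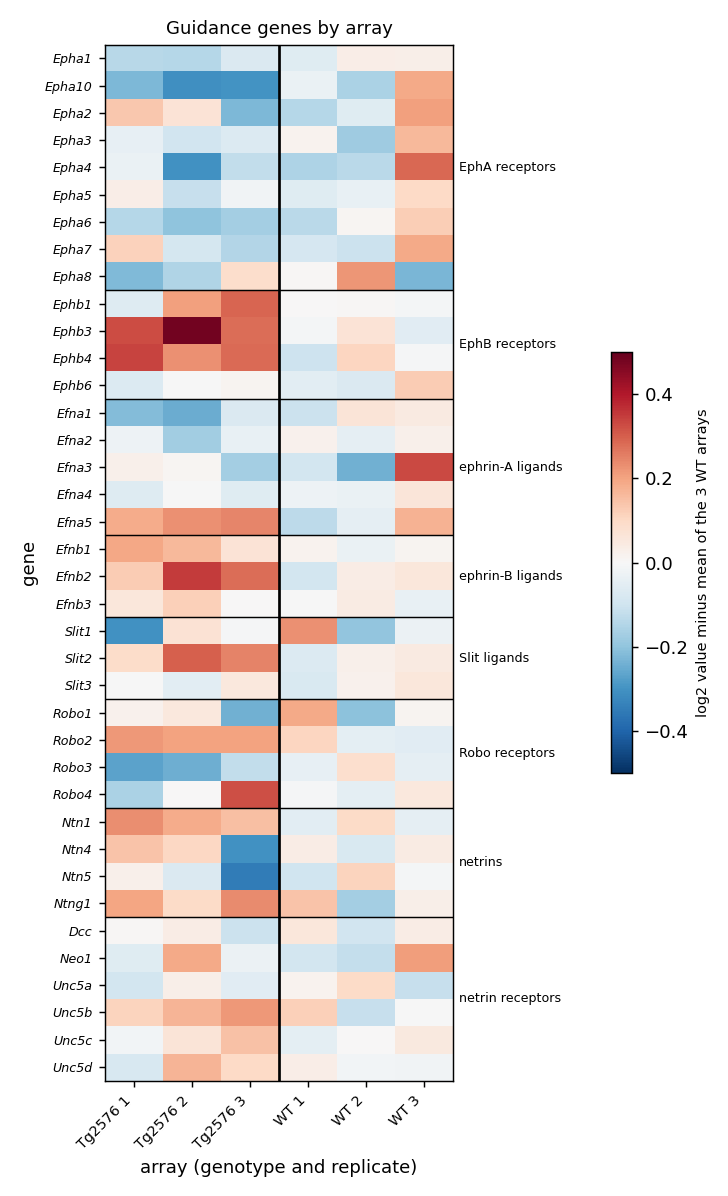
Log2 value minus the mean of the 3 WT arrays (colour, red above and blue below) for each guidance gene (rows, by family) in each array (columns, Tg2576 replicates 1 to 3 left of WT replicates 1 to 3). Ephb3, Ephb4 and Efnb2 are red in all Tg2576 arrays, and most EphA receptors are red in WT replicate 3.

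Of the Slit and Robo genes, Slit2 and Robo2 were higher in every Tg2576 array, and Robo3 was lower. Slit2, a secreted repellent of OB axons and migrating neuroblasts, was at 7.12, 7.32 and 7.27 in Tg2576 OBs, against 6.96, 7.05 and 7.07 in WT OBs. Its level lay above that of 55.7% of the negative controls. The gap between groups was 0.047, and the difference was 0.21 (SE 0.085, unadjusted p = 0.035, limma adjusted p = 0.557). Robo2, the Slit receptor that sorts sensory axons along the dorsal to ventral axis of the OB, was at 10.28, 10.26 and 10.26 in Tg2576 OBs, against 10.168, 10.011 and 10.002 in WT OBs. The Tg2576 arrays lay close together, and the difference was 0.21 (SE 0.078, unadjusted p = 0.028, limma adjusted p = 0.541), between 0.18 and 0.26 with an array left out. Robo1, its neighbour on the chromosome with no protein-coding gene between them, differed by -0.056, with a 95% confidence interval from -0.34 to 0.22. Robo3, which governs the crossing of the midline by commissural axons, was at 6.46, 6.48 and 6.60 in Tg2576 OBs, against 6.69, 6.81 and 6.68 in WT OBs, a difference of -0.21 (SE 0.081, unadjusted p = 0.030, limma adjusted p = 0.544). All 6 arrays of Robo3 lay under the median of the negative controls.

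The other members of this system overlapped between groups. Robo4, a receptor of endothelial cells, was at 7.77, 7.93 and 8.25 in Tg2576 OBs, against 7.93, 7.88 and 7.98 in WT OBs, and differed by 0.055 (SE 0.12). Slit1, a neural Slit, differed by -0.079 (95% confidence interval -0.39 to 0.23). Slit3 was the member nearest to 0, at 8.950, 8.8995 and 9.003 in Tg2576 OBs, against 8.87, 8.97 and 9.01 in WT OBs, and its difference of 0.00049 had a 95% confidence interval from -0.18 to 0.18. The 4 Robo receptors together had a mean difference of -0.00090, which was 0.0011 after a further cyclic loess normalization, and the 3 Slits of 0.045.

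Of the netrins, Ntn1 was higher and its receptors did not pass an unadjusted p of 0.05. Ntn1, a secreted cue that attracts or repels axons depending on the receptor, was at 8.48, 8.43 and 8.40 in Tg2576 OBs, against 8.19, 8.34 and 8.20 in WT OBs. All Tg2576 arrays were above all WT arrays, by at least 0.053, and the difference was 0.19 (SE 0.078, unadjusted p = 0.041, limma adjusted p = 0.568). Ntng1, a membrane-anchored netrin of presynaptic axons that binds Lrrc4c, differed by 0.18 (SE 0.098), Ntn4, a netrin of basement membranes, by -0.019 (SE 0.12) and Ntn5, which lay above 54.7% of the negative controls, by -0.13 (SE 0.11), all with overlapping arrays. Dcc, the receptor for attraction, differed by -0.022, with a 95% confidence interval from -0.21 to 0.17, and Neo1, its relative that also binds repulsive guidance molecules, by 0.033 (-0.23 to 0.29). Unc5b, the Unc5 receptor of blood vessels, had the highest difference of the receptors, 0.17 (SE 0.086, unadjusted p = 0.087 in limma). Unc5c, Unc5d and Unc5a differed by 0.067, 0.063 and -0.040. None of the 6 netrin receptors was apart between groups.

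**Figure D4:**
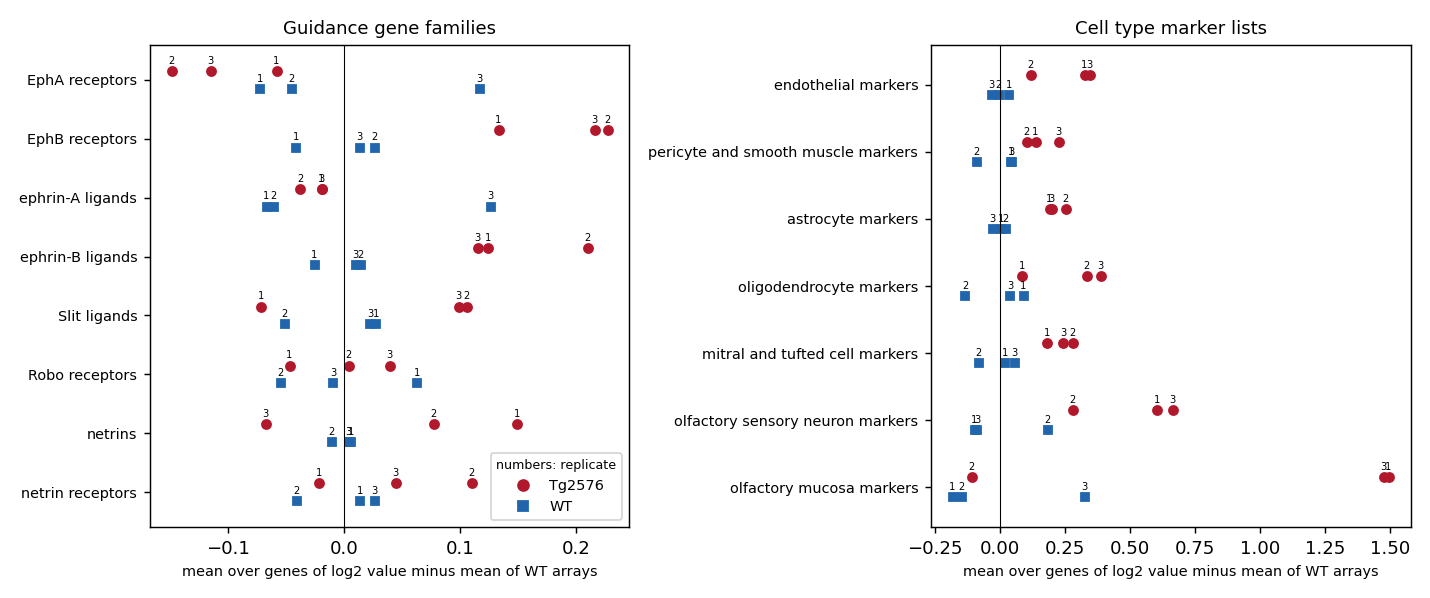
Mean over genes of the log2 value minus the mean of the WT arrays (x axes), for guidance gene families (left) and some of the cell type marker lists (right), with 1 point per array (red circles, Tg2576; blue squares, WT; numbers, replicates). Not drawn are the lists of bulb interneurons and neuroblasts, with negative mean differences (-0.018 and -0.025). Those of meningeal fibroblasts, oligodendrocyte precursors, olfactory ensheathing cells and microglia, with positive ones, are not drawn either. EphB receptors lie between 0.13 and 0.23 in Tg2576 and between -0.041 and 0.027 in WT arrays, and ephrin-B ligands between 0.12 and 0.21 in Tg2576 and between -0.025 and 0.015 in WT arrays.

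Genes that work with these receptors were read from a list of 44 signalling proteins and surface partners, of which 42 were measured. None passed both thresholds with limma or limma-trend, 2 had an unadjusted p under 0.01 (beside 2.11% of all probe sets) and 8 had one under 0.05 (19.0%, beside 8.54% of all probe sets), 4 higher and 4 lower, and their median difference was 0.029. Rgma, which encodes a repulsive guidance molecule and ligand of Neo1, was at 10.52, 10.67 and 10.57 in Tg2576 OBs, against 10.35, 10.18 and 10.25 in WT OBs. Its groups did not overlap, and the difference was 0.33 (SE 0.083, unadjusted p = 0.0038, limma adjusted p = 0.381). Srgap1, a GTPase-activating protein that binds Robo receptors, was at 8.997, 8.989 and 9.011 in Tg2576 OBs, against 8.48, 8.76 and 8.76 in WT OBs. The difference was 0.33 (SE 0.094, unadjusted p = 0.0074, limma adjusted p = 0.453), with 1 WT array well below the others. Rhoa, the small GTPase through which repulsive cues collapse growth cones, differed by 0.22 (SE 0.088), and Sdc3, a heparan sulfate proteoglycan, by 0.23 (SE 0.094). On the lower side, Trio, an exchange factor downstream of Dcc, was at 10.78, 10.76 and 10.75 in Tg2576 OBs, against 10.94, 10.96 and 11.02 in WT OBs. The groups were apart by 0.16, and the difference was -0.21 (SE 0.071, unadjusted p = 0.018, limma adjusted p = 0.506). Vav2, an exchange factor recruited by Eph receptors, differed by -0.28 (SE 0.11), Flrt3, a membrane protein that binds Robo1 and Unc5 receptors, by -0.24 (SE 0.086) and Abl2, a kinase of the cytoskeleton, by -0.22 (SE 0.082). Of these 8 genes, 2 higher and 3 lower ones were among the 30 signalling proteins measured, and 2 higher and 1 lower ones among the 12 surface partners.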

How the data were processed

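The authors hybridised RNA of 6 olfactory bulbs to Affymetrix mouse Clarion S arrays and deposited log2 expression values (1 for each probe set on each array), background corrected, quantile normalized and summarised by RMA per the labels. The version of RMA, the arrays normalized together and extraction or scan batches are not given in the sources used here. Of 28815 probe sets, 6609 controls were left out, and 19572 of the 22206 tested had 1 gene symbol in the platform annotation, 0 several and 2634 none. For genes with more than 1 probe set, that of highest mean was taken.

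The comparison of genotypes was fitted in R 4.3.3 by limma 3.58.1 with genotype as the only term (8.47 degrees of freedom in all) and Benjamini-Hochberg adjustment over all probe sets. Members and lists were chosen with earlier results of these data known. Values in every array are given for members at an unadjusted p under 0.05, members without overlap between genotypes, the member nearest to 0 and that with the widest interval, and partner genes at an unadjusted p under 0.05 are named. Ephb1 and Robo4 were added after their values were seen. Ptk2, Pak1 and Pdgfra, which belong to the lists of signalling proteins and markers, were not analysed here. Alternatives were array weights, limma-trend with robust moderation, median centring, further quantile or cyclic loess normalization, a mean of at least 6, the mean of all probe sets of a gene, a replicate block, no fold threshold, a reciprocal lower fold threshold (0.769) and each array left out. The fit was tested on simulated data. Tables and figures used Python 3.11.15, numpy 2.4.6, pandas 2.3.3 and matplotlib 3.10.9.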

Additional observations from a re-analysis of the deposited data

How the results depend on the processing

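No guidance gene was called lower under any alternative run, and no difference of a gene given above as apart between genotypes changed sign. The number called higher, 0, was 1 with array weights and 2 without a fold threshold, and between 0 and 1 with an array left out (Ephb3 each time it was 1). The number at an unadjusted p under 0.05, 9, was 5 with a replicate block and between 2 and 9 with an array left out. The median difference of the guidance genes, -0.019, lay between -0.031 and 0.042 with an array left out, and it was positive without Tg2576 replicate 3 (0.019) or WT replicate 3. The number of partner genes called, 0, was 2 without a fold threshold, which are Rgma and Srgap1. The cause of these changes was not tested, except that a fit without an array has fewer samples and one without a fold threshold asks for less. The replicate numbers are shared by the genotypes, but arrays of the same number did not deviate together (correlations of 0.036, -0.038 and -0.043). With 3 mice per genotype this cannot show that the mice are unpaired, and the sources used here do not say. With the replicate block no call of a guidance or partner gene changed, but Efna5, Robo2, Robo3 and Ntn1 had an unadjusted p above 0.05 in limma. By limma-trend, Epha10 (unadjusted p = 0.0076) and Efnb2 (0.0089) also had an unadjusted p under 0.01, Ephb4 had 0.019, and Slit2, Robo3 and Ntn1 one above 0.05. Median centring, further quantile normalization and cyclic loess kept the sign of the mean of the EphA receptors (-0.12 to -0.11), the EphB receptors (0.18 to 0.19) and the ephrin-B ligands (0.13 to 0.14). Robo3 and Epha8 had every array under the median of the negative controls, and Ephb4, Slit2 and Ntn5 lay only a little above it, which limits what their differences can show.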
